A study of Mus musculus with 24 samples.

Results

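The unfolded protein response and secretory folding module is a set of 38 protein-coding genes of the endoplasmic reticulum (ER), chosen by symbol. All 38 had a row among the 43280 gene symbols of the count table. They fall into 8 roles: 4 stress sensors (Ern1, Ern2, Eif2ak3, Atf6), 5 transcription factors (Xbp1, Atf4, Atf5, Ddit3, Creb3l1), 3 targets of the integrated stress response (Trib3, Chac1, Asns), 9 ER chaperones and co-chaperones, 2 lectin chaperones (Calr, Canx), 5 protein disulfide isomerases, 5 genes of ER-associated degradation, and 5 genes of the translocon and signal peptide processing.

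Secreted and membrane proteins enter the ER through the Sec61 channel, where chaperones fold them and disulfide isomerases join their cysteines. When unfolded protein builds up, IRE1 (Ern1 and its gut epithelial paralogue Ern2) splices Xbp1 mRNA, ATF6 is cut to release a transcription factor, and PERK (Eif2ak3) phosphorylates eIF2alpha, which favours translation of ATF4. In the small intestine, Xbp1 is known for its need in Paneth and goblet cells, the professional secretory cells of the crypt.

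The study asked how NRG1 (neuregulin-1, an ERBB receptor ligand) acts on cells of the crypt. Male C57BL/6 littermates that carry the Lgr5-EGFP reporter received 7.5 µg NRG1 or PBS vehicle by intraperitoneal injection every 12 h for 5 days, and small intestine was taken on day 6, with 3 mice per treatment. Of each treatment, the mice of replicates 1 and 2 had an age of 15 weeks and that of replicate 3 an age of 11 weeks, so age and mouse cannot be told apart in replicate 3. After removal of villi, live crypt cells lacking the endothelial marker CD31 and the leukocyte marker CD45 were gated on EGFP and CD24 to give 4 populations, so that each of the 6 mice gave 1 library per population, 24 in all. The labels name Lgr5high-CD24low as crypt base columnar stem cells, Lgr5med-CD24low as immediate progenitors, Lgr5low-CD24low as subsequent progenitors and Lgr5neg-CD24neg as differentiated cells. EGFP marks activity of the Lgr5 reporter, not a cell type, and a gate can mix lineages.

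Total counts ran between 11176264 and 23343499 per library, of which mitochondrial rRNA (mt-Rnr1 and mt-Rnr2) took 49.5 to 62.4% in Lgr5neg libraries, against 37.6 to 47.1% in all others. Genes with at least 10 counts numbered 11624 to 12373 in Lgr5neg libraries, against 12056 to 13876 in the others, with overlap at 1 Lgr5low library. Both differences move with every comparison against Lgr5neg, and their part in those results was not tested. Levels below are CPM, counts relative to library size, after scaling over all 24 libraries, and 3 counts, the least read as detection, correspond to 0.112 to 0.247 CPM, a limit that covers counting error only. The ratio of mt-Rnr1 to mt-Rnr2 counts differed by treatment: 38.02 to 54.2 per 100 in NRG1 libraries, against 18.1 to 32.1 per 100 in PBS libraries apart from replicate 3 of Lgr5high PBS at 42.9. Summed CPM of the 12 stem cell markers followed the labels, at 4443 to 4960 in NRG1 and 4233 to 5876 in PBS libraries of Lgr5high, and 105 to 146 in NRG1 and 142 to 158 in PBS libraries of Lgr5neg. Enterocyte markers (20 of 20 detected) were highest in Lgr5neg, at 39320 to 57630 CPM with NRG1 and 52740 to 86960 CPM with PBS, against 1530 to 9581 CPM elsewhere. Goblet cell markers (18 of 18 detected, among them the mucin Muc2 and the trefoil peptide Tff3) were highest in Lgr5low, at 16020 to 30330 CPM with NRG1 and 15460 to 29540 CPM with PBS. T and intraepithelial lymphocyte markers (12 of 12 detected) summed to 58.3 to 461 CPM with NRG1 and 95.7 to 206 CPM with PBS in Lgr5neg, despite the CD45 gate, and to at most 5.50 CPM elsewhere. Among myeloid markers, S100a8 and S100a9 had no count in any group. The sum, made up mostly of Cd74 and Itgam, was lower with NRG1 in each population without overlap (in Lgr5med 17.8 to 28.1 CPM with NRG1 and 31.3 to 68.3 CPM with PBS). Mean Cd74 was lower in each population. Itgam and Cd68 were higher with NRG1 in Lgr5high (means 14.24 and 1.928 CPM, against 12.5 and 1.614 CPM with PBS), so the list did not move as a whole.

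Of the 38 genes, 31 had a promoter window in the RefSeq table (GRCm38.p6, 250 bases before to 50 bases after the start). Windows were searched on both strands for the ER stress response element ERSE (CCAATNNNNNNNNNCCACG), its shorter form ERSE-II (ATTGG, any base, CCACG), the unfolded protein response element UPRE (TGACGTGG) and the C/EBP-ATF response element CARE (TGATGNAA). The sequences shown are those of the called chaperone genes that held a match (Hspa5 and Dnajb11), with Creld2 and Pdia6 beside them. Shown too are Hsp90b1, the member with the highest level per length in 3 populations, and Herpud1, whose differences with NRG1 had the opposite sign. Asns is shown because, unlike most members, it was higher in Lgr5high than in Lgr5neg. Each sequence runs 5′ to 3′ on the strand of its gene, and capitals mark the matched element.
Hspa5 (ERSE, chr2:34772015-34772053, plus strand): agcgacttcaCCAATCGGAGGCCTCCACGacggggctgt
Creld2 (ERSE, reverse orientation, chr15:88819510-88819548, plus strand): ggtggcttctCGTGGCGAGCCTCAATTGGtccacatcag
Hsp90b1 (ERSE, distal copy, chr10:86705628-86705666, minus strand): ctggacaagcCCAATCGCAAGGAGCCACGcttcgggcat
Hsp90b1 (ERSE, reverse orientation, proximal copy, chr10:86705523-86705561, minus strand): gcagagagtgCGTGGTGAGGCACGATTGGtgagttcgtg
Pdia6 (ERSE, chr12:17266481-17266519, plus strand): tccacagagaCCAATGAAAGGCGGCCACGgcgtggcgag
Dnajb11 (ERSE-II, chr16:22857842-22857872, plus strand): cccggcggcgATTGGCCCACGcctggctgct
Herpud1 (ERSE-II, chr8:94386367-94386397, plus strand): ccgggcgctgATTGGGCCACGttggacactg
Asns (CARE, chr6:7693215-7693242, minus strand): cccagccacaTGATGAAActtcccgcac

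ERSE was present in the windows of 8 of the 31 genes (Calr, Canx, Creld2, Dnajc3, Hsp90b1, Hspa5, Pdia6 and Syvn1) and in 0.119% of all 32851 windows. ERSE-II was present for 2 of 31 (Dnajb11 and Herpud1) and in 0.0365% of all windows. CARE, a short element, was present for 4 of 31 (Asns, Chac1, Herpud1 and Trib3) and in 3.97% of all windows, and UPRE for 0 of 31 and in 0.676% of all windows. A match describes the letters of a window and is not evidence of binding, and genes of this module were in part defined in the field through such elements.

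Members differed widely in level. Per kilobase of merged exon, Hsp90b1 (the ER Hsp90, GRP94) led in both treatments of Lgr5high (127 CPM per kb with NRG1, 128.6 with PBS), Lgr5med (157.8 with NRG1, 194.4 with PBS) and Lgr5low (220.5 with NRG1, 206.5 with PBS). P4hb, a disulfide isomerase that is also a subunit of the triglyceride transfer protein of lipoprotein assembly, led in Lgr5neg (399.1 CPM per kb with NRG1, 421.4 with PBS). At the other end, Trib3 and Chac1 had 156 and 159 counts over all 24 libraries and lay near the detection limit in most. The members' share of counts outside mitochondrial rRNA was 0.515 to 0.640% in NRG1 and 0.519 to 0.699% in PBS libraries of Lgr5high, and 0.919 to 1.19% in NRG1 and 0.847 to 1.24% in PBS libraries of Lgr5low. In PBS mice the highest mean CPM was in Lgr5low for 24 members, in Lgr5neg for 12, in Lgr5med for 2 and in Lgr5high for 0.

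**Figure D1:**
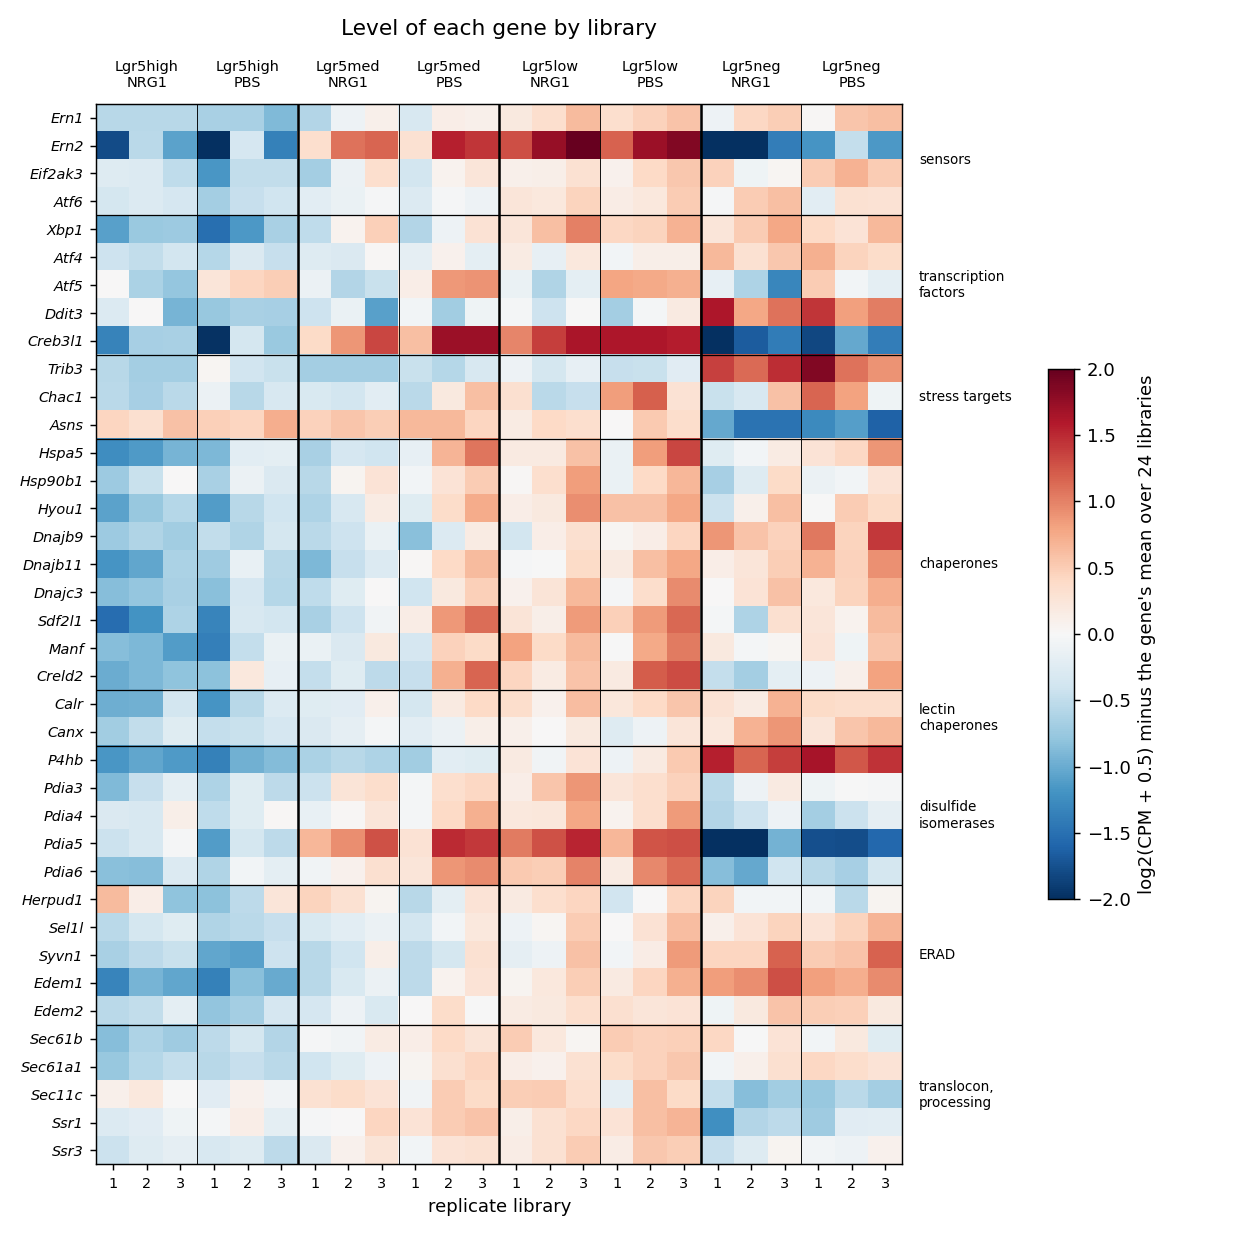
Level of each of the 38 genes in each of the 24 libraries, as log2(CPM + 0.5) minus the mean of that gene over all libraries; rows are genes grouped by role, columns are replicates 1 to 3 of each group. Most rows are blue in Lgr5high and red in Lgr5low, and within a group replicate 1 is often the palest or bluest column.

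Mice of a group differed for many members at once. Of the 36 members that averaged at least 4 CPM, replicate 1 was the lowest library for 26 in Lgr5high NRG1, 29 in Lgr5high PBS, 28 in Lgr5med NRG1, 32 in Lgr5med PBS, 21 in Lgr5low NRG1 and 32 in Lgr5low PBS. Replicate 3, the 11-week-old mouse, was the highest library for 27 in Lgr5med NRG1, 24 in Lgr5med PBS, 31 in Lgr5low NRG1 and 28 in Lgr5low PBS. It was highest for 24 in Lgr5high NRG1 and 17 in Lgr5high PBS, where replicate 2 was highest for 19. In Lgr5neg the order was weaker: replicate 1 was lowest for 19 with NRG1 and 16 with PBS, and replicate 3 highest for 25 and 20. Such counts over all genes are not given here, so this order is not shown to be particular to the members. This shared spread between mice enters the error of every NRG1 comparison below, and the p-values measure the spread between these mice. A gene is called when its adjusted p, from the quasi-likelihood test of edgeR with Benjamini-Hochberg adjustment over all genes tested, is under 0.05. Counts of called members from alternative fits are given below too. Apart from fits with a mouse or replicate block, the share of all genes called in those fits is not given. A change in such a count is therefore not read as particular to the members.

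Of the 38 members, Trib3 and Chac1 failed the filter on low counts in the NRG1 comparisons of Lgr5high and Lgr5med, Trib3 in that of Lgr5low and Chac1 in that of Lgr5neg.

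In Lgr5high stem cell libraries, 2 of 36 tested members fell with NRG1 and 0 rose: Hspa5 and Atf5. Over all 13322 genes tested, 4.15% were called lower and 3.18% higher, so the count of falls is near that background; at an unadjusted p under 0.05, 0 members were higher, against 11.1% of all genes. The members' median log2 difference was -0.02, against 0.01 for all genes, with 20 of 36 below 0. The 9 chaperones were all below 0, with a median of -0.37, while the 4 sensors were all above 0, with a median of 0.19, and 4 of 5 genes of ER-associated degradation were above 0.

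Hspa5 (chr2:34771970-34777547, GRCm38) encodes BiP, the ER Hsp70 that binds unfolded chains and holds the stress sensors inactive. It stood at 148, 160.1 and 186 CPM in NRG1 libraries, against 189, 304 and 308 CPM in PBS libraries. The highest NRG1 library lay just below the lowest PBS library, and the means were 165 ± 18.9 and 267 ± 67.7 CPM (SD, n = 3 each; log2 difference -0.68, SE 0.17, adjusted p = 0.0261). Atf5 (chr7:44812256-44816658), a transcription factor translated under eIF2alpha phosphorylation, stood at 4.29, 2.58 and 2.31 CPM in NRG1 libraries, against 5.20, 5.98 and 6.21 CPM in PBS libraries. The groups did not overlap, at means of 3.06 ± 1.08 and 5.8 ± 0.532 CPM (log2 difference -0.91, SE 0.26, adjusted p = 0.0389). Atf5 was a low-count gene, and 82 of its exon bases overlap Nup62 and Il4i1 on the opposite strand; whether the counting used strand is not given in the sources used here.

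Both calls in Lgr5high ended in 6 or more of 14 alternatives: without NRG1 replicate 2 or PBS replicate 2 no member was called, 1 was without NRG1 replicate 1 (lower) or PBS replicate 3 (higher), and 3 were without PBS replicate 1. Restricted to 15-week-old mice, Hspa5 had adjusted p = 0.0969 and Atf5 adjusted p = 0.213, whereas Dnajb11 was lower (log2 difference -0.71, adjusted p = 0.0369) and Herpud1 higher (1.09, adjusted p = 0.00641). With all 24 libraries in 1 model, 0 members were called. The share of all genes called in these fits is not given, so these changes are not shown to be particular to the members. Libraries of Lgr5high also differed with NRG1 in proliferation markers (11 of 12 higher, 2774 to 3560 CPM with NRG1 and 1888 to 2036 CPM with PBS) and in Paneth cell markers (4 of 14 lower, 1312 to 2166 CPM with NRG1 and 2215 to 3857 CPM with PBS). In bulk libraries, fewer cells of a type and less RNA per cell cannot be told apart, and the part of these markers in the members' differences was not tested.

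The mRNA of the main regulators was not called in Lgr5high. Counts per gene symbol do not show spliced Xbp1, ATF4 protein or cut ATF6, so activity of these regulators was not measured in any population. Xbp1, the factor that IRE1 splicing activates, stood at 36.3, 45.9 and 46.8 CPM in NRG1 libraries, against 26.8, 34.6 and 49.3 CPM in PBS libraries, with overlapping groups (log2 difference 0.24, SE 0.20, adjusted p = 0.533). Atf4, the main effector of PERK, stood at 56.4, 53.4 and 58.0 CPM in NRG1 libraries, against 50.1, 61.4 and 54.4 CPM in PBS libraries (log2 difference 0.03, SE 0.11, adjusted p = 0.91). Ddit3, which encodes the pro-apoptotic factor CHOP, stood at 3.79, 4.69 and 2.22 CPM in NRG1 libraries, against 2.55, 2.82 and 2.77 CPM in PBS libraries (log2 difference 0.41, SE 0.29, adjusted p = 0.437). The treatments overlapped for both. Ern2, the sensor of mucus-secreting epithelium, stood at 8.63, 21.1 and 14.6 CPM in NRG1 libraries, against 6.34, 24.4 and 11.8 CPM in PBS libraries, also with overlap (log2 difference 0.07, SE 0.63, adjusted p = 0.967).

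In Lgr5med progenitor libraries, 5 of 36 tested members fell with NRG1 and 0 rose: Atf5, Sdf2l1, Hspa5, Dnajb11 and Sec61a1. Over all 13394 genes tested, 5.79% were called lower and 3.76% higher. The median log2 difference of the members was -0.23, against 0.01 for all genes, and 32 of 36 members were below 0, against 49.1% of all genes. By role, falls passed the test for 3 of 9 chaperones, 1 of 5 transcription factors and 1 of 5 translocon genes, and for none of the 4 sensors, 2 lectin chaperones, 5 disulfide isomerases or 5 genes of ER-associated degradation. At an unadjusted p under 0.05, 1 member, Herpud1, was higher, against 12.1% of all genes.

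Hspa5 stood at 226, 279.5 and 268 CPM in NRG1 libraries, against 315, 569 and 742 CPM in PBS libraries. All 3 NRG1 libraries lay below the lowest PBS library, and PBS replicates 2 and 3 were far above replicate 1 (log2 difference -1.05, SE 0.28, adjusted p = 0.0484). Dnajb11 (chr16:22857845-22879634), a DnaJ co-chaperone that hands unfolded chains to BiP, stood at 49.1, 66.5 and 76.2 CPM in NRG1 libraries, against 93.2, 122 and 143 CPM in PBS libraries. The groups did not overlap, at means of 63.9 ± 13.7 and 119 ± 24.9 CPM (log2 difference -0.88, SE 0.18, adjusted p = 0.0134). Sdf2l1 (chr16:17130138-17132383) encodes a partner of Dnajb11 that keeps unfolded chains from aggregating in the BiP cycle. It stood at 13.9, 16.4 and 20.9 CPM in NRG1 libraries, against 24.6, 40.9 and 48.4 CPM in PBS libraries. These groups did not overlap either (log2 difference -1.13, SE 0.25, adjusted p = 0.0227).

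Sec61a1 (chr6:88503579-88518905), the channel-forming subunit of the translocon, stood at 105, 116 and 128 CPM in NRG1 libraries, against 143, 172 and 186 CPM in PBS libraries. The NRG1 libraries were all lower, and the difference was the smallest of the 5 calls (log2 difference -0.50, SE 0.13, adjusted p = 0.0288). Atf5 stood at 3.90, 2.69 and 3.00 CPM in NRG1 libraries, against 4.73, 8.28 and 8.42 CPM in PBS libraries. No NRG1 library reached the lowest PBS library, replicate 1 (log2 difference -1.14, SE 0.27, adjusted p = 0.0166). Creld2, an ER co-chaperone with an ERSE match like that of Hspa5, had a difference of similar size but overlapping libraries, at 11.8, 13.9 and 11.4 CPM in NRG1 libraries, against 11.9, 27.5 and 37.7 CPM in PBS libraries (log2 difference -1.04, SE 0.40, adjusted p = 0.176). Pdia6, a disulfide isomerase that acts on the luminal side of IRE1, also missed the threshold (log2 difference -0.59, SE 0.18, adjusted p = 0.0596).

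**Figure D2:**
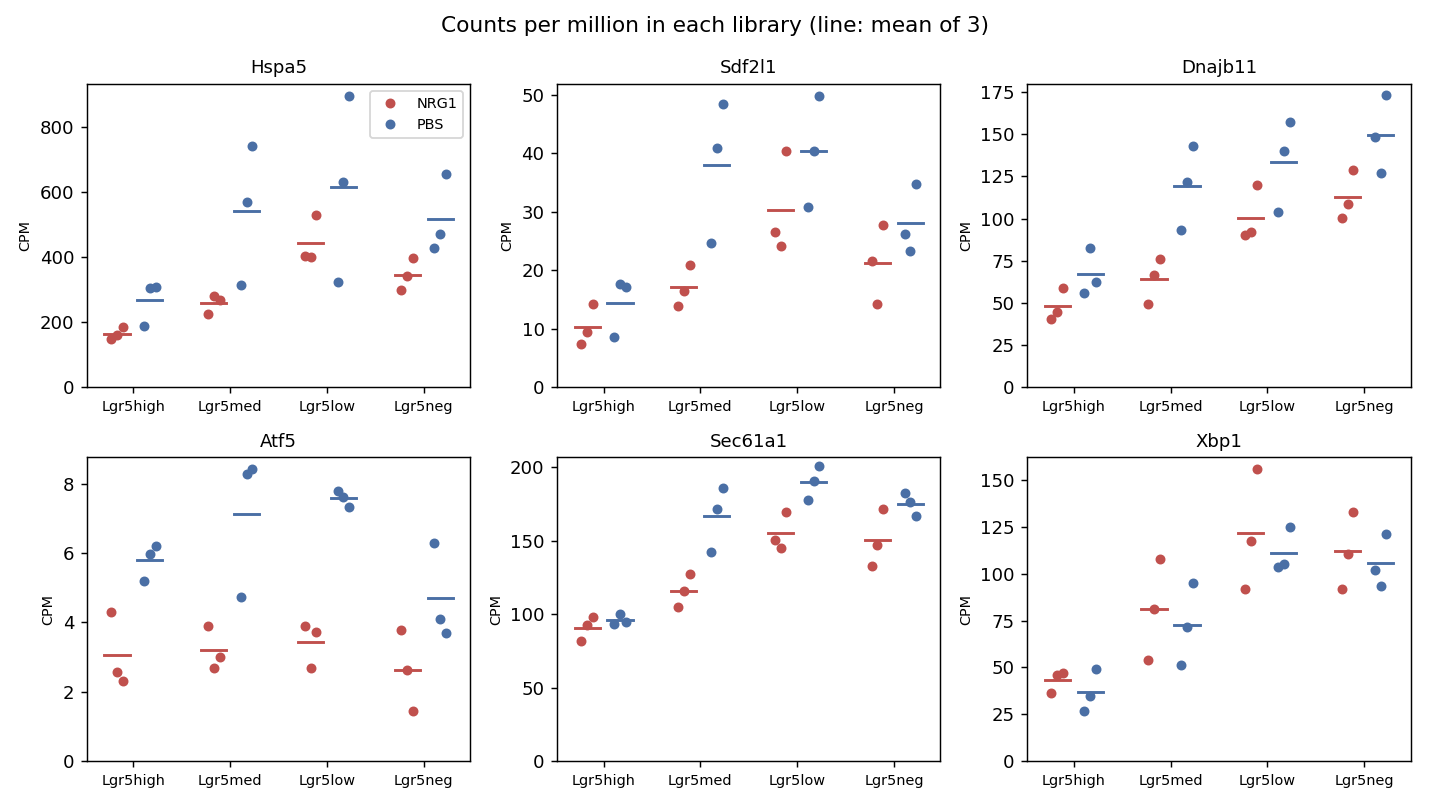
CPM of the 5 genes called in Lgr5high or Lgr5med and of Xbp1 in each library, by population, with NRG1 (red) left of PBS (blue); points run from replicate 1 to replicate 3 and lines are means of 3. The NRG1 points of Hspa5, Sdf2l1, Dnajb11, Atf5 and Sec61a1 in Lgr5med lie below the PBS points, while those of Xbp1 overlap in each population.

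The mRNA of the regulators again showed no call. Xbp1 stood at 54.1, 81.2 and 108 CPM in NRG1 libraries, against 51.3, 71.8 and 95.2 CPM in PBS libraries in Lgr5med (log2 difference 0.18, SE 0.32, adjusted p = 0.787), and Atf4 at 62.3, 61.1 and 76.1 CPM in NRG1 libraries, against 65.8, 79.9 and 65.2 CPM in PBS libraries (log2 difference -0.06, SE 0.13, adjusted p = 0.818). Ddit3 stood at 3.40, 4.25 and 1.94 CPM in NRG1 libraries, against 4.5, 2.69 and 4.37 CPM in PBS libraries (log2 difference -0.24, SE 0.32, adjusted p = 0.685), and Ern2 at 39.2, 66.6 and 70.0 CPM in NRG1 libraries, against 38.5, 92.0 and 84.5 CPM in PBS libraries (log2 difference -0.27, SE 0.41, adjusted p = 0.743). The treatments overlapped for these 4 genes. Trib3, a pseudokinase target of ATF4 and CHOP, had no count in any NRG1 library of Lgr5med, which allows up to 0.112 to 0.139 CPM, and 0.0408 to 0.141 CPM in PBS libraries, so that no difference was detectable at this depth.

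The calls in Lgr5med depended on single libraries. Without NRG1 replicate 2, PBS replicate 2 or PBS replicate 3 no member was called. Without NRG1 replicate 1 there were 2, and without PBS replicate 1 there were 9. The share of all genes called in these fits is not given, so this dependence is not shown to be particular to the members. In 15-week-old mice alone 3 were called, with adjusted p = 0.165 for Hspa5, 0.131 for Atf5 and 0.0892 for Sec61a1, and Herpud1 was then higher (log2 difference 0.77, adjusted p = 0.031). Hspa5 also missed the threshold once mitochondrial rRNA was removed (log2 difference -1.05, adjusted p = 0.0578) or under other scalings (adjusted p = 0.0531 and 0.0511); over its alternatives it ended in 9 of 14. Alongside the members, enterocyte markers were lower in Lgr5med with NRG1 (4 of 20 called, 1919 to 2488 CPM with NRG1 and 2927 to 3507 CPM with PBS) and proliferation markers higher (6 of 12 called, 1985 to 2370 CPM with NRG1 and 1667 to 1730 CPM with PBS). None of the 18 goblet markers was called (5121 to 11850 CPM with NRG1 and 5925 to 17270 CPM with PBS). The part of these markers in the members' differences was not tested.

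In Lgr5low progenitor libraries no member was called among 37 tested, in a comparison in which 0.3% of all genes were called lower and 0.143% higher. At an unadjusted p under 0.05, 5 members passed, all lower (Atf5, Chac1, Dnajb11, Creld2 and Sec61a1), against 13.5% of all genes in either direction, and DESeq2 called 1. Atf5 stood at 3.89, 2.67 and 3.71 CPM in NRG1 libraries, against 7.79, 7.62 and 7.33 CPM in PBS libraries. The groups did not overlap, though the threshold was missed (log2 difference -1.16, SE 0.24, adjusted p = 0.0597). With the replicate number as a block (deviations of same-numbered libraries correlated at 0.131 to 0.173), Atf5 alone was called (log2 difference -1.16, adjusted p = 0.00969), where 2.99% of all genes were called lower. No label pairs NRG1 with PBS mice, so this block is no established pairing. Hspa5 stood at 402, 400.1 and 528 CPM in NRG1 libraries, against 324, 630 and 895 CPM in PBS libraries. PBS replicate 1 was below all NRG1 libraries, and replicates 2 and 3 above them (log2 difference -0.47, SE 0.31, adjusted p = 0.567).

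Among the regulators, Xbp1 stood at 91.7, 118 and 156 CPM in NRG1 libraries, against 103, 105 and 125 CPM in PBS libraries in Lgr5low (log2 difference 0.14, SE 0.18, adjusted p = 0.784). Atf4 stood at 84.1, 66.9 and 86.9 CPM in NRG1 libraries, against 72.1, 81.7 and 80.9 CPM in PBS libraries (log2 difference 0.03, SE 0.14, adjusted p = 0.961). Ddit3 stood at 4.54, 3.41 and 4.65 CPM in NRG1 libraries, against 2.75, 4.57 and 5.37 CPM in PBS libraries (log2 difference -0.01, SE 0.30, adjusted p = 0.993), and Ern2 at 76.5, 105 and 147 CPM in NRG1 libraries, against 70.6, 103 and 114 CPM in PBS libraries (log2 difference 0.20, SE 0.23, adjusted p = 0.755). The treatments overlapped for all 4. The median over members was -0.09, against -0.000717 for all genes, with 26 of 37 below 0 (all genes 50.2%).

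In Lgr5neg differentiated libraries no member was called among 37 tested, where 0.176% of all genes were called lower and 0.151% higher. At an unadjusted p under 0.05, 4 members passed, all lower (Ern2, Creld2, Hspa5 and Dnajb11), against 10.6% of all genes in either direction, and DESeq2 called 0. Ern2 stood at 5.59, 7.30 and 11.6 CPM in NRG1 libraries, against 13.5, 22.1 and 13.7 CPM in PBS libraries. The treatments did not overlap (log2 difference -1.001, SE 0.29, adjusted p = 0.205). Goblet markers ran the same way without overlap, at 1450 to 4575 CPM with NRG1 and 5704 to 8119 CPM with PBS (0 of 18 called, median -1.08), and their part in the Ern2 difference was not tested. Hspa5 stood at 299, 340 and 395 CPM in NRG1 libraries, against 428, 471 and 654 CPM in PBS libraries. Here too every NRG1 library was below every PBS library (log2 difference -0.58, SE 0.20, adjusted p = 0.297).

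With the replicate number as a block (correlations of same-numbered libraries 0.102 to 0.18), 5 members were called in Lgr5neg, all lower, where 4.55% of all genes were called lower under that block: Ern2 (log2 difference -1.02, adjusted p = 0.00605), Hspa5 (-0.56, adjusted p = 0.00141), Dnajb11 (-0.40, adjusted p = 0.0224), Creld2 (-0.74, adjusted p = 0.00973) and Ssr1 (-0.39, adjusted p = 0.0251). As in Lgr5low, the block is no established pairing of mice. Xbp1 stood at 92.1, 111 and 133 CPM in NRG1 libraries, against 102, 93.5 and 122 CPM in PBS libraries (log2 difference 0.09, SE 0.17, adjusted p = 0.909), Atf4 at 117, 93.1 and 109 CPM in NRG1 libraries, against 123, 102 and 96.5 CPM in PBS libraries (log2 difference -0.00, SE 0.16, adjusted p = 0.997) and Ddit3 at 15.4, 8.35 and 10.5 CPM in NRG1 libraries, against 13.5, 8.69 and 10.0 CPM in PBS libraries (log2 difference 0.09, SE 0.26, adjusted p = 0.937). The treatments overlapped for these 3 factors. The members' median was -0.14, against 0.01 for all genes, with 26 of 37 below 0 (all genes 48.3%).

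**Figure D3:**
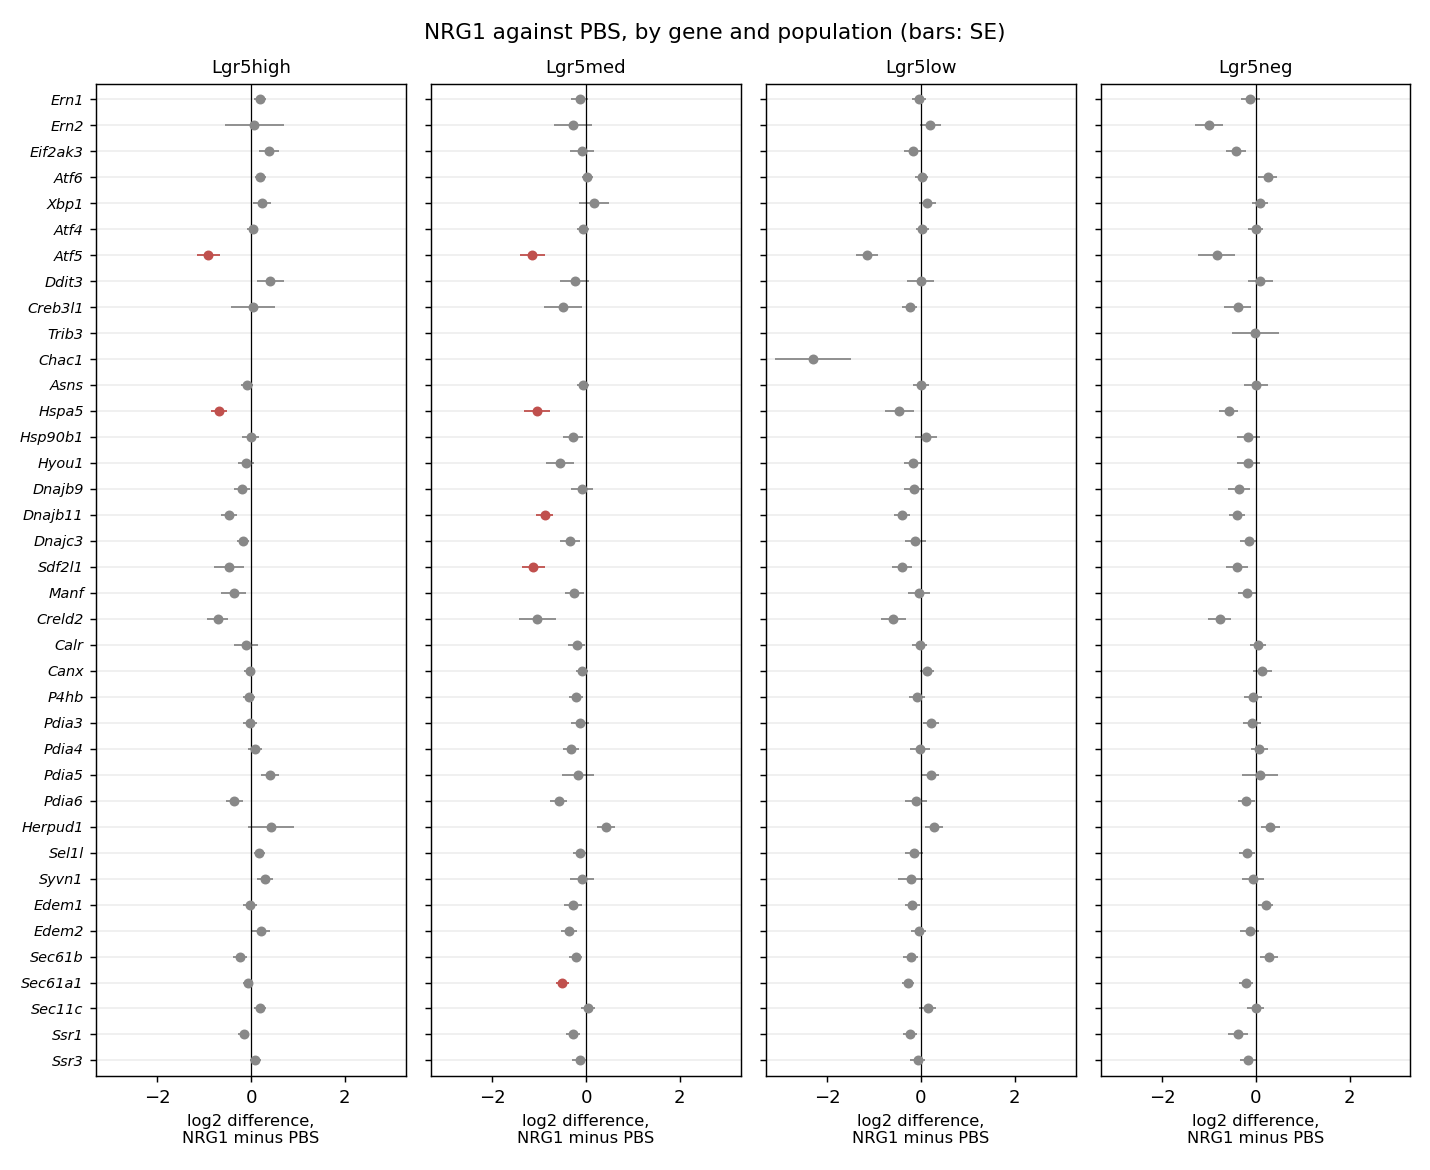
Log2 difference, NRG1 minus PBS, of each gene in each of the 4 populations, with its SE; red points are called lower, grey points are not called, and genes that failed the filter on low counts have no point. Hspa5, Dnajb11, Sdf2l1, Creld2 and Atf5 lie left of 0 in each panel and Herpud1 and Xbp1 right of 0, and red points are present in the Lgr5high and Lgr5med panels.

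Side by side over Lgr5high, Lgr5med, Lgr5low and Lgr5neg, the log2 differences with NRG1 were -0.68, -1.05, -0.47 and -0.58 for Hspa5. For Dnajb11 they were -0.47, -0.88, -0.40 and -0.40, and for Creld2 -0.72, -1.04, -0.59 and -0.78. Herpud1, the membrane scaffold of the degradation complex, which has an ERSE-II match as Dnajb11 does, ran the other way in each population (0.43, 0.42, 0.28 and 0.31, none called). In Lgr5high it stood at 40.5, 28.6 and 14.6 CPM in NRG1 libraries, against 14.4, 17.8 and 30.6 CPM in PBS libraries, with overlapping groups (log2 difference 0.43, SE 0.50, adjusted p = 0.687). Chaperones were below 0 for 9 of 9 in Lgr5high, Lgr5med and Lgr5neg and for 8 of 9 in Lgr5low, with medians of -0.37, -0.55, -0.37 and -0.18 in the order Lgr5high, Lgr5med, Lgr5neg and Lgr5low. The 4 comparisons draw on the same 6 mice, so that their shared signs are not independent.

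Whether the NRG1 response of a population differed from that of Lgr5neg was tested directly over all 24 libraries. These fits held no mouse term, although each mouse gave a library of each population. No member was called for Lgr5high, Lgr5med or Lgr5low by edgeR or by DESeq2. Over 15045 genes, 0.0133% were called higher and 0.0399% lower for Lgr5high, 0.0199% higher and 0.0266% lower for Lgr5med, and 0.0133% higher and 0.00665% lower for Lgr5low. At an unadjusted p under 0.05, 3 members passed for Lgr5high (Trib3 and Sec61b lower, Eif2ak3 higher), against 8.66% of genes in either direction. For Lgr5med 2 passed (Trib3 and Sec61b, both lower), against 7.27% of genes, and for Lgr5low 1 passed (Sec61b, lower), against 5.9%. The calls of Hspa5 or Atf5 in Lgr5high and Lgr5med are thus not shown to be particular to those populations.

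Companion genes of the same pathways, listed by function, had few calls. In Lgr5high, where 4.15% of all genes were called lower, NRG1 lowered 1 of 25 other ER folding enzymes (Tmx1), 3 of 27 other translocon and glycosylation genes (Spcs3, Rpn1 and Srp9), 2 of 35 ER to Golgi transport genes (Tmed2 and Tmed9), 0 of 23 other degradation genes and 0 of 40 other ATF4 and integrated stress response genes, and raised none of these. All but the translocon list were near or below that share. In Lgr5med, where 5.79% of all genes were called lower, it lowered 3 of 25 folding enzymes (Fkbp2, Sil1 and Mogs), 3 of 27 translocon genes and 3 of 35 transport genes (Tmed3, Tmed9 and Sec24c), with 0 of 23 degradation genes called. Rpn1, an oligosaccharyltransferase subunit, fell by 0.55 in Lgr5high (adjusted p = 0.0272) and by 0.99 in Lgr5med (adjusted p = 0.000871) on the log2 scale. Of 40 ATF4 and integrated stress genes, 4 were lower in Lgr5med, among them the tRNA synthetases Aars (log2 difference -0.68), Nars (-0.65) and Yars (-0.53), and 1 was higher. In Lgr5low and Lgr5neg none of these companion lists held a call. Their medians in Lgr5med were -0.25 for folding, -0.01 for degradation, -0.18 for translocon and -0.21 for transport genes, against 0.01 for all genes.

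The populations of PBS mice were compared next, which asks where along the Lgr5 gradient the module is used. The main fits held no mouse term, although each mouse gave a library of each population. Counts with the mouse as a block are given beside them. In Lgr5high against Lgr5med, 18 of 38 members were lower and 0 higher, where 6.72% of all genes were called lower and 2.44% higher. Members had a median log2 difference of -0.71, against 0.00 for all genes, with 37 of 38 below 0, and at an unadjusted p under 0.05 none was higher (8.16% of all genes). Falls came from each role except the integrated stress targets: 3 of 4 sensors, 2 of 5 transcription factors, 3 of 9 chaperones, 1 of 2 lectin chaperones, 4 of 5 disulfide isomerases, 2 of 5 degradation genes and 3 of 5 translocon genes. With the mouse as a block, 28 members were lower, where 8.59% of all genes were called lower under that block. Among those added were Hspa5 (log2 difference -0.96, adjusted p = 0.000358) and Syvn1 (-0.67, adjusted p = 0.000634).

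The largest steps were those of Ern2, Creb3l1 and Pdia5. Ern2 (chr7:122169893-122186207) stood at 6.34, 24.4 and 11.8 CPM in Lgr5high, at 38.5, 92.0 and 84.5 CPM in Lgr5med, at 70.6, 103 and 114 CPM in Lgr5low and at 13.5, 22.1 and 13.7 CPM in Lgr5neg libraries of PBS mice. Lgr5high and Lgr5neg overlapped at the low end, and both lay below Lgr5med and Lgr5low (Lgr5high against Lgr5med log2 difference -2.33, SE 0.51, adjusted p = 0.0232; Lgr5low against Lgr5neg log2 difference 2.53, SE 0.52, adjusted p = 0.00266). The call against Lgr5med ended without Lgr5high replicate 3 (adjusted p = 0.105), Lgr5med replicate 2 (adjusted p = 0.0858) or Lgr5med replicate 3 (adjusted p = 0.0843). Creb3l1 (chr2:91982328-92024502), a membrane-bound factor of secretory load, stood at 9.76, 30.9 and 23.7 CPM in Lgr5high, at 60.5, 131 and 131 CPM in Lgr5med, at 123, 123 and 119 CPM in Lgr5low and at 10.9, 19.2 and 14.9 CPM in Lgr5neg libraries of PBS mice. It too was highest in Lgr5med and Lgr5low, while its lowest mean was in Lgr5neg and that of Ern2 in Lgr5high. No library of Lgr5med was below the highest of Lgr5high (Lgr5high against Lgr5med log2 difference -2.32, SE 0.43, adjusted p = 0.00897; Lgr5low against Lgr5neg log2 difference 3.01, SE 0.45, adjusted p = 0.000265).

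Pdia5 (chr16:35397312-35490873), a disulfide isomerase that acts on ATF6, stood at 6.29, 11.0 and 9.71 CPM in Lgr5high, at 17.5, 40.9 and 38.5 CPM in Lgr5med, at 22.8, 34.7 and 35.2 CPM in Lgr5low and at 3.82, 3.78 and 4.44 CPM in Lgr5neg libraries of PBS mice. It was lowest in Lgr5neg, and Lgr5high lay between Lgr5neg and Lgr5med (-1.83 against Lgr5med, adjusted p = 0.00127; 1.16 against Lgr5neg, adjusted p = 0.00575). The sum of goblet markers was also highest in Lgr5med and Lgr5low, though lowest in Lgr5high rather than Lgr5neg. By gene, 17 of 18 were lower and 1 higher in Lgr5high against Lgr5med (median -3.02), and 15 of 18 higher and 0 lower in Lgr5low against Lgr5neg (median 2.10). The lowest population differed by gene. Muc2 was lowest in Lgr5high, whereas Spink4 averaged 92.55 CPM in Lgr5high and 44.7 CPM in Lgr5neg of PBS mice. Muc2 averaged 329 CPM in Lgr5high, 3611 CPM in Lgr5med, 6124 CPM in Lgr5low and 1897 CPM in Lgr5neg libraries of PBS mice. Enteroendocrine markers also summed highest in Lgr5med and Lgr5low of PBS mice. Their mean sums were 86.4 CPM in Lgr5high, 555 CPM in Lgr5med, 906 CPM in Lgr5low and 139 CPM in Lgr5neg. The part of goblet or enteroendocrine cell number in these members' steps was not tested.

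**Figure D4:**
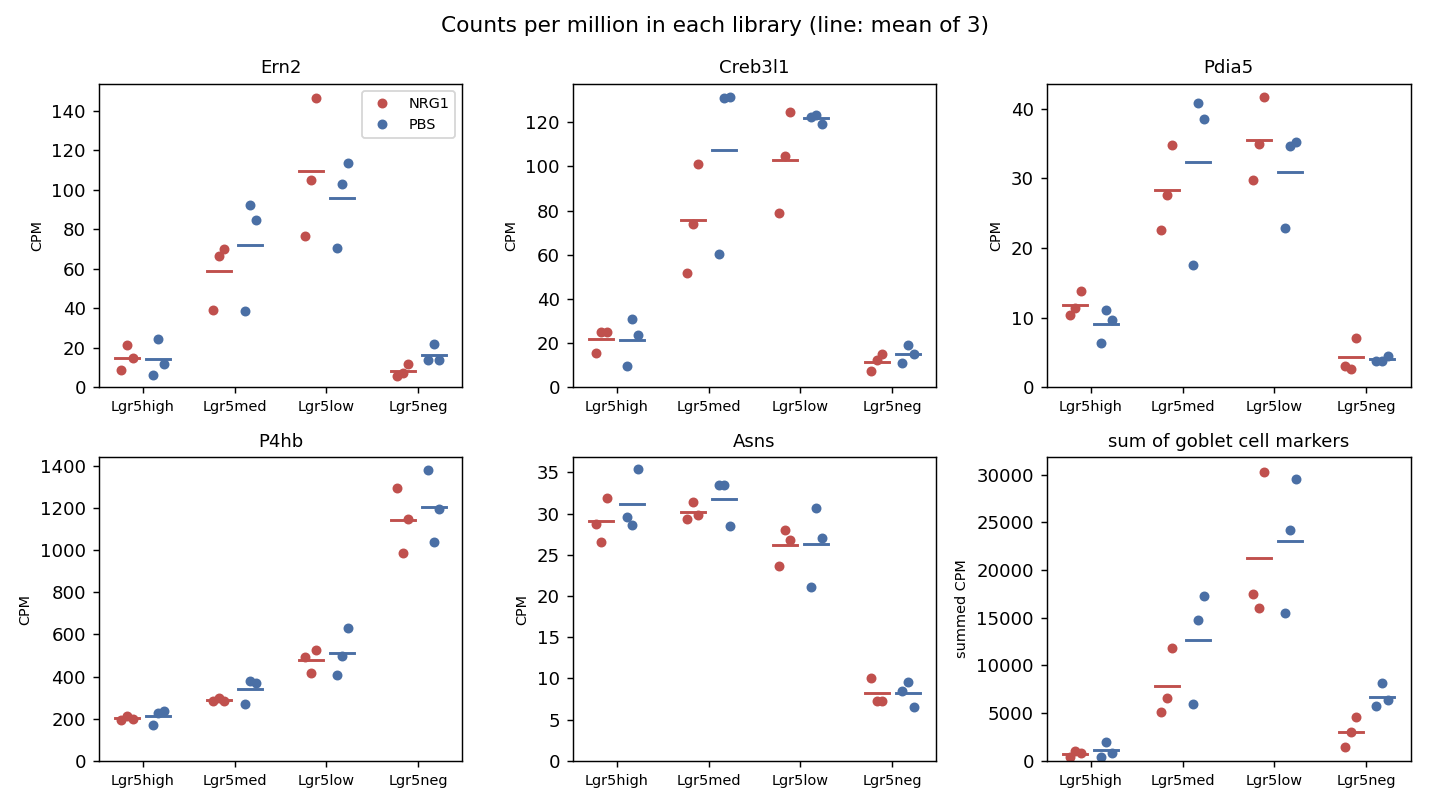
CPM of Ern2, Creb3l1, Pdia5, P4hb and Asns and the summed CPM of the 18 goblet cell markers in each library, by population, with NRG1 (red) left of PBS (blue) and lines at the mean of 3. Ern2, Creb3l1 and the goblet sum are high in Lgr5med and Lgr5low, P4hb is highest in Lgr5neg, and Asns is lowest there.

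Smaller steps between Lgr5high and Lgr5med were spread over the folding and degradation genes. Xbp1 (chr11:5520659-5525893) stood at 26.8, 34.6 and 49.3 CPM in Lgr5high, at 51.3, 71.8 and 95.2 CPM in Lgr5med, at 103, 105 and 125 CPM in Lgr5low and at 102, 93.5 and 122 CPM in Lgr5neg libraries of PBS mice. All Lgr5high libraries were below those of Lgr5med, and Lgr5low and Lgr5neg overlapped (log2 difference -0.98, SE 0.22, adjusted p = 0.0113 for Lgr5high against Lgr5med). Sdf2l1 stood at 8.57, 17.6 and 17.1 CPM in Lgr5high, at 24.6, 40.9 and 48.4 CPM in Lgr5med, at 30.8, 40.4 and 49.8 CPM in Lgr5low and at 26.1, 23.3 and 34.7 CPM in Lgr5neg libraries of PBS mice. Its lowest Lgr5med library, replicate 1, was above the highest of Lgr5high (log2 difference -1.39, SE 0.30, adjusted p = 0.0112). Edem1, a lectin that sends misfolded glycoproteins to degradation, stood at 24.2, 34.6 and 30.9 CPM in Lgr5high, at 43.3, 65.7 and 75.5 CPM in Lgr5med, at 70.5, 84.3 and 103 CPM in Lgr5low and at 111, 104 and 121 CPM in Lgr5neg libraries of PBS mice. The Lgr5high libraries were all below Lgr5med, and the Lgr5neg libraries above all others (log2 difference -1.04, SE 0.19, adjusted p = 0.0019 for Lgr5high against Lgr5med).

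Hyou1, the ER Hsp110 that exchanges nucleotides on BiP, stood at 34.6, 51.3 and 57.0 CPM in Lgr5high, at 63.6, 97.7 and 127 CPM in Lgr5med, at 114, 114 and 129.5 CPM in Lgr5low and at 74.8, 108 and 98.8 CPM in Lgr5neg libraries of PBS mice (log2 difference -1.01, SE 0.23, adjusted p = 0.011 for Lgr5high against Lgr5med). Pdia6 stood at 44.9, 65.7 and 59.8 CPM in Lgr5high, at 80.5, 126 and 132 CPM in Lgr5med, at 76.2, 134 and 150 CPM in Lgr5low and at 46.3, 42.7 and 53.4 CPM in Lgr5neg libraries of PBS mice (log2 difference -0.99, SE 0.24, adjusted p = 0.0183). No Lgr5high library of either gene reached Lgr5med. For both, Lgr5low was above Lgr5high, but Pdia6 was low again in Lgr5neg (log2 difference 1.33, SE 0.24, adjusted p = 0.00031 for Lgr5low against Lgr5neg), whereas Hyou1 was not called there without the mouse block (log2 difference 0.33, SE 0.23, adjusted p = 0.23). Hspa5 had a difference close to that of Hyou1 without a call in the unblocked test (log2 difference -1.02, SE 0.40, adjusted p = 0.17), its PBS libraries ranging between 189 and 308 CPM in Lgr5high and between 315 and 742 CPM in Lgr5med. Counts of called members in this comparison dropped to 10 without replicate 1 of Lgr5high, to 10 without replicate 2 of Lgr5med and to 8 without replicate 3 of Lgr5med.

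Between Lgr5med and Lgr5low of PBS mice no member was called, where 5.59% of all genes were called lower and 2% higher. The median was -0.21, against -0.00184 for all genes, and 36 of 38 members were below 0. At an unadjusted p under 0.05, 6 members were lower and 0 higher (P4hb, Ern1, Atf6, Xbp1, Edem1 and Sel1l), against 20.9% of all genes in either direction, and DESeq2 called 1. A mouse block gave 7 calls, all lower, where 7.29% of all genes were called lower. They were those 6 and Syvn1, the ubiquitin ligase HRD1 (log2 differences between -0.38 for Sel1l and -0.65 for Xbp1). With single libraries left out 1 was called without Lgr5med replicate 3 or Lgr5low replicate 1, and 3 without Lgr5neg replicate 1. Enterocyte markers were lower at the same step for 17 of 20 genes, and goblet markers for 0 of 18.

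In Lgr5low against Lgr5neg, members were called in both directions. Of 38 members, 12 were higher and 6 lower, where 30.6% of all genes were called higher and 25.3% lower, so that the counts were near or below the background. Higher in Lgr5low were 4 of 5 disulfide isomerases (Pdia5, Pdia6, Pdia4 and Pdia3), 4 of 5 translocon genes (Sec11c, Ssr1, Sec61b and Ssr3), and Ern2, Creb3l1, Atf5 and Asns. Lower in Lgr5low were P4hb, Canx, Dnajb9, Atf4, Ddit3 and Trib3. None of the 5 degradation genes was called, and of the chaperones only Dnajb9 was. With the mouse as a block 15 members were higher and 8 lower, where 31.6% of all genes were called higher and 26.4% lower. The block added Hyou1 (log2 difference 0.35, adjusted p = 0.0405), Sdf2l1 (0.48, adjusted p = 0.0168) and Creld2 (0.62, adjusted p = 0.01) as higher, and the degradation genes Syvn1 (-0.45, adjusted p = 0.00233) and Edem1 (-0.41, adjusted p = 0.0144) as lower.

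P4hb (chr11:120560298-120573253) was the highest member of Lgr5neg and stood at 171, 226 and 239 CPM in Lgr5high, at 271, 379.6 and 369.8 CPM in Lgr5med, at 407, 499 and 633 CPM in Lgr5low and at 1380, 1040 and 1197 CPM in Lgr5neg libraries of PBS mice. The 4 populations ranked in that order and Lgr5neg stood apart from the rest (log2 difference -1.24, SE 0.19, adjusted p = 1.39e-05 for Lgr5low against Lgr5neg; log2 difference -2.52, SE 0.20, adjusted p = 9.13e-10 for Lgr5high against Lgr5neg). Ddit3 (chr10:127290774-127296288) stood at 2.55, 2.82 and 2.77 CPM in Lgr5high, at 4.5, 2.69 and 4.37 CPM in Lgr5med, at 2.75, 4.57 and 5.37 CPM in Lgr5low and at 13.5, 8.69 and 10.0 CPM in Lgr5neg libraries of PBS mice. Its Lgr5neg libraries were above all others (log2 difference -1.36, SE 0.28, adjusted p = 0.00038). Dnajb9, a BiP co-chaperone that represses IRE1, stood at 8.39, 7.73 and 9.26 CPM in Lgr5high, at 6.51, 9.88 and 13.5 CPM in Lgr5med, at 12.3, 13.3 and 16.4 CPM in Lgr5low and at 25.3, 16.6 and 32.7 CPM in Lgr5neg libraries of PBS mice. Its call ended without replicate 3 of Lgr5neg (log2 difference -0.57, adjusted p = 0.0765).

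Atf4 stood at 50.1, 61.4 and 54.4 CPM in Lgr5high, at 65.8, 79.9 and 65.2 CPM in Lgr5med, at 72.1, 81.7 and 80.9 CPM in Lgr5low and at 123, 102 and 96.5 CPM in Lgr5neg libraries of PBS mice. The step to Lgr5neg was small (log2 difference -0.47, SE 0.14, adjusted p = 0.0065) and was not called without replicate 1 of Lgr5neg (log2 difference -0.33, adjusted p = 0.0565). Canx, the membrane lectin chaperone, stood at 261, 266 and 288 CPM in Lgr5high, at 314, 335 and 395 CPM in Lgr5med, at 305, 340.2 and 432 CPM in Lgr5low and at 431, 532 and 569.5 CPM in Lgr5neg libraries of PBS mice, and its Lgr5low and Lgr5neg libraries met at 432 and 431 CPM (log2 difference -0.52, SE 0.15, adjusted p = 0.00779). Its call ended without Lgr5low replicate 1 (log2 difference -0.39, adjusted p = 0.0611) and without Lgr5neg replicate 3 (-0.40, adjusted p = 0.0573). Trib3 stood at 0.319, 0.114 and 0.0907 CPM in Lgr5high, at 0.0910, 0.0408 and 0.141 CPM in Lgr5med, at 0.0833, 0.0897 and 0.187 CPM in Lgr5low and at 2.40, 1.21 and 0.988 CPM in Lgr5neg libraries of PBS mice. The Lgr5neg libraries, with 12 to 32 counts each, were above all others, most of which lay at or below the detection limit (log2 difference -3.63, SE 0.75, adjusted p = 0.000376).

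Asns (chr6:7675169-7693254), asparagine synthetase, a target of ATF4 with a CARE match, stood at 29.6, 28.6 and 35.4 CPM in Lgr5high, at 33.5, 33.5 and 28.5 CPM in Lgr5med, at 21.2, 30.7 and 27.0 CPM in Lgr5low and at 8.46, 9.58 and 6.58 CPM in Lgr5neg libraries of PBS mice. It ran against Atf4, Ddit3 and Trib3, with the 3 CD24low populations above all Lgr5neg libraries (log2 difference 1.67, SE 0.18, adjusted p = 2.1e-07 for Lgr5low against Lgr5neg; log2 difference 1.91, SE 0.18, adjusted p = 1.43e-08 for Lgr5high against Lgr5neg). Sec11c, a catalytic subunit of signal peptidase, stood at 27.6, 34.0 and 30.7 CPM in Lgr5high, at 30.8, 46.2 and 41.9 CPM in Lgr5med, at 28.4, 49.2 and 42.0 CPM in Lgr5low and at 18.8, 22.1 and 20.0 CPM in Lgr5neg libraries of PBS mice (log2 difference 0.96, SE 0.19, adjusted p = 0.000256). Ssr1, a subunit of the translocon-associated TRAP complex, stood at 153, 171 and 136 CPM in Lgr5high, at 189.9, 223 and 231 CPM in Lgr5med, at 188, 238 and 250.2 CPM in Lgr5low and at 95.2, 134 and 135 CPM in Lgr5neg libraries of PBS mice (log2 difference 0.88, SE 0.16, adjusted p = 9.9e-05). Lgr5neg was lowest for both. Pdia4 stood at 50.4, 60.9 and 73.3 CPM in Lgr5high, at 69.8, 95.2 and 118 CPM in Lgr5med, at 75.7, 90.6 and 131 CPM in Lgr5low and at 44.6, 53.1 and 63.2 CPM in Lgr5neg libraries of PBS mice, and its Lgr5neg libraries were close to those of Lgr5high (log2 difference 0.87, SE 0.22, adjusted p = 0.00344 for Lgr5low against Lgr5neg).

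Other genes of the integrated stress response were called in both directions. Of 40, 22 were higher and 8 lower in Lgr5low against Lgr5neg (median 0.55; all genes 30.6% higher and 25.3% lower). In Lgr5high against Lgr5neg 18 were higher and 10 lower (median 0.48), close to the background of 35.4% higher and 32% lower. The serine synthesis genes Phgdh (log2 difference 4.85) and Psat1 (3.40) and the transporter subunit Slc7a5 (4.22) were higher in Lgr5high than in Lgr5neg, while Slc3a2 (-2.63), Sqstm1 (-1.60) and Cth (-1.36) were lower. Proliferation markers were higher for 12 of 12 genes and lymphocyte markers lower for 11 of 11 tested in Lgr5high against Lgr5neg. Their part in these differences was not tested.

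Between the ends of the gradient, Lgr5high against Lgr5neg of PBS mice, 24 of 38 members were lower and 3 higher, where 32% of all genes were called lower and 35.4% higher. The median was -0.94, against 0.09 for all genes. The 3 higher were Asns, Pdia5 and Sec11c (log2 difference 0.59, adjusted p = 0.0101). The largest falls of members at 4 CPM or more on average were P4hb (-2.52), Ddit3 (-1.99), Edem1 (-1.91), Syvn1 (-1.64), Dnajb9 (-1.57), Xbp1 (-1.53), Eif2ak3 (-1.33) and Dnajb11 (-1.17). Falls covered 3 of 4 sensors, 3 of 5 transcription factors, 5 of 9 chaperones, both lectin chaperones, 2 of 5 disulfide isomerases, 4 of 5 degradation genes, 3 of 5 translocon genes, and Trib3 and Chac1 near the detection limit. With the mouse as a block 28 were lower and 4 higher, where 32.8% of all genes were called lower and 36.7% higher. The block added Hspa5 (log2 difference -0.99, adjusted p = 1.78e-05), Hsp90b1, Manf and Creld2 as lower and Ssr1 as higher. Under upper-quartile scaling the all-gene median moved to 0.30 and 21 members were lower and 4 higher. The share of all genes called under that scaling is not given.

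**Figure D5:**
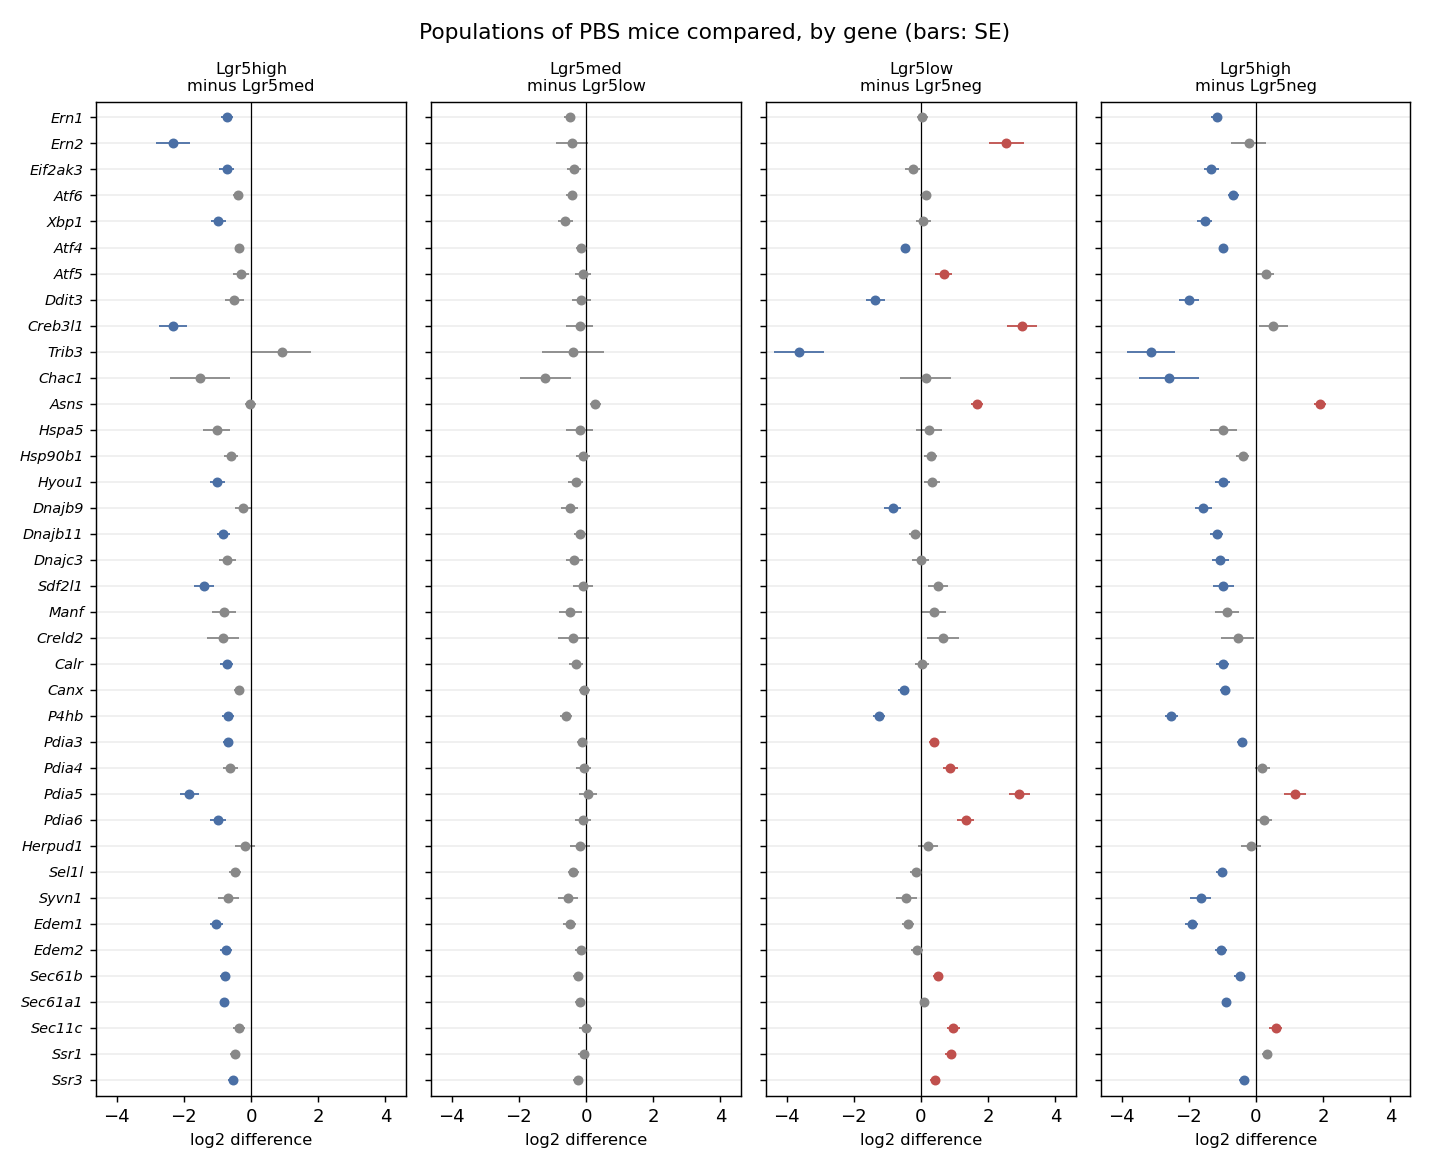
Log2 difference of each gene between populations of PBS mice, first-named minus second, with its SE; blue points are called lower, red points higher and grey points are not called. The fits held no mouse term. Nearly all points lie left of 0 in Lgr5high minus Lgr5med, no point is called in Lgr5med minus Lgr5low, and both directions are called in Lgr5low minus Lgr5neg.

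Syvn1 stood at 21.4, 20.8 and 33.2 CPM in Lgr5high, at 30.9, 34.9 and 55.2 CPM in Lgr5med, at 43.0, 49.6 and 81.2 CPM in Lgr5low and at 63.8, 66.8 and 102 CPM in Lgr5neg libraries of PBS mice. Its Lgr5high libraries were all below those of Lgr5neg (log2 difference -1.64, SE 0.31, adjusted p = 0.000486). Eif2ak3, the PERK kinase, stood at 4.01, 6.70 and 6.71 CPM in Lgr5high, at 7.33, 10.1 and 11.5 CPM in Lgr5med, at 10.2, 12.8 and 14.1 CPM in Lgr5low and at 13.9, 15.9 and 13.8 CPM in Lgr5neg libraries of PBS mice and was likewise separated (log2 difference -1.33, SE 0.23, adjusted p = 3.19e-05). Dnajb11 stood at 56.1, 82.8 and 62.4 CPM in Lgr5high, at 93.2, 122 and 143 CPM in Lgr5med, at 104, 140.1 and 157 CPM in Lgr5low and at 149, 127 and 173 CPM in Lgr5neg libraries of PBS mice, with all Lgr5high libraries below Lgr5neg (log2 difference -1.17, SE 0.19, adjusted p = 2.57e-05). Sel1l, the adaptor of HRD1, was lower by a similar step (log2 difference -1.02, SE 0.17, adjusted p = 2.32e-05). Of the companion lists, ER to Golgi transport genes had the most falls, 29 of 35 with 1 higher (median -1.22), among them the COPII coat genes Sec24d (log2 difference -4.31), Sec23a (-3.41) and Sar1b (-2.45), and other degradation genes had 14 of 23 lower and 0 higher (median -0.66). Other folding enzymes were 10 of 25 lower and 6 higher (median -0.06). Enterocyte markers were lower for 20 of 20 genes in the same comparison.

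The same steps were compared in NRG1 mice, again in main fits without a mouse term. For Lgr5high against Lgr5med, 8 of 37 tested members were lower and 0 higher (2.52% of all genes lower, 0.594% higher; at an unadjusted p under 0.05 none was higher, against 5.51%). They were Ern2 (-2.01), Creb3l1 (-1.82), Pdia5 (-1.28), Manf (-0.94), Edem1 (-0.81), Sec61b (-0.81), Pdia6 (-0.78) and Hspa5 (-0.67), with a median over members of -0.38 against -0.02 for all genes. Over 19 alternatives the calls ended in 4 for Ern2, 5 for Pdia5 and 6 each for Hspa5 and Pdia6. The mouse block gave 17 calls, all lower, where 4.59% of all genes were called lower. With single libraries left out there were between 2 and 9, fewest without replicate 1 of Lgr5high or replicate 3 of Lgr5med and 4 or 5 without any of Lgr5high 2, Lgr5high 3 or Lgr5med 2. Goblet markers were lower for 15 of 18 genes at this step.

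For Lgr5med against Lgr5low of NRG1 mice, 7 of 37 were lower and 0 higher (3.8% of all genes lower, 0.923% higher; at an unadjusted p under 0.05 none was higher, against 6.35%). Hspa5 (log2 difference -0.79, SE 0.16, adjusted p = 0.00822), Creld2 (log2 difference -0.83, SE 0.17, adjusted p = 0.00978) and Dnajb11 (log2 difference -0.66, SE 0.18, adjusted p = 0.0452) were among them, with Manf, a secreted ER chaperone (-0.69), P4hb (-0.74) and Edem1 (-0.59). Trib3, the remaining call, had 0 counts in each Lgr5med and 3 in each Lgr5low library. Hspa5 stood at 226, 279.5 and 268 CPM in Lgr5med, against 402, 400.1 and 528 CPM in Lgr5low, without overlap. With the mouse as a block 22 members were called, all lower, where 6.72% of all genes were called lower. Over 19 alternatives the call of Dnajb11 ended in 11, that of Edem1 in 12, that of Manf in 5 and those of Hspa5 and Creld2 in 3 each. With single libraries left out there were between 0 and 9: 0 without Lgr5low replicate 3, 1 without Lgr5med replicate 1, and 3 or 4 without Lgr5med replicate 2, Lgr5low replicates 1 or 2, Lgr5high replicates 1 or 2, or Lgr5neg replicate 2.

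Against Lgr5neg, NRG1 mice gave 12 members higher and 8 lower for Lgr5low (30.4% of all genes higher, 26.6% lower), and 5 higher and 24 lower for Lgr5high (33.5% of all genes higher, 32% lower). A mouse block gave 16 higher and 8 lower for Lgr5low (32.2% of all genes higher, 28.1% lower), and 6 higher and 25 lower for Lgr5high (35.4% of all genes higher, 33.3% lower). Ern2 was higher in Lgr5low by 3.71 on the log2 scale, Creb3l1 by 3.14, Pdia5 by 3.04 and Asns by 1.65. P4hb (-1.28) and Ddit3 (-1.48) were lower in Lgr5low, and each kept its call in 19 of 19 alternatives. Syvn1 was lower too (-0.61), but its call ended in 9 of 19 alternatives, among them all 24 libraries in 1 model (adjusted p = 0.111), upper-quartile scaling (adjusted p = 0.108) and the fit without Lgr5neg replicate 3 (log2 difference -0.31, adjusted p = 0.261). P4hb stood at 196, 213 and 199 CPM in Lgr5high of NRG1 mice, against 1294, 984 and 1147 CPM in Lgr5neg. Asns stood at 28.7, 26.6 and 31.9 CPM in Lgr5high, against 10.1, 7.30 and 7.25 CPM in Lgr5neg. Neither gene's libraries overlapped between these populations. The members' medians for Lgr5high against Lgr5neg were -0.79 in NRG1 mice and -0.94 in PBS mice.

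Ern2 was at 8.63, 21.1 and 14.6 CPM in Lgr5high, at 39.2, 66.6 and 70.0 CPM in Lgr5med, at 76.5, 105 and 147 CPM in Lgr5low and at 5.59, 7.30 and 11.6 CPM in Lgr5neg. Creb3l1 was at 15.4, 25.0 and 25.1 CPM in Lgr5high, at 51.9, 73.9 and 101 CPM in Lgr5med, at 79.0, 104 and 125 CPM in Lgr5low and at 7.23, 12.2 and 14.8 CPM in Lgr5neg, and Pdia5 at 10.4, 11.3 and 13.9 CPM in Lgr5high, at 22.6, 27.6 and 34.8 CPM in Lgr5med, at 29.8, 34.9 and 41.7 CPM in Lgr5low and at 3.04, 2.63 and 7.10 CPM in Lgr5neg. For these genes every Lgr5med and Lgr5low library was above every Lgr5high and Lgr5neg library. Manf was at 14.2, 13.7 and 11.7 CPM in Lgr5high, at 23.7, 21.2 and 29.9 CPM in Lgr5med, at 45.4, 34.0 and 40.7 CPM in Lgr5low and at 29.6, 25.2 and 26.8 CPM in Lgr5neg. Sec61b, the small subunit of the Sec61 channel, was at 10.4, 12.3 and 11.5 CPM in Lgr5high, at 19.0, 18.2 and 21.7 CPM in Lgr5med, at 27.6, 22.3 and 19.9 CPM in Lgr5low and at 25.8, 19.2 and 23.4 CPM in Lgr5neg. Pdia6 was at 37.9, 37.7 and 56.5 CPM in Lgr5high, at 64.8, 72.2 and 85.3 CPM in Lgr5med, at 98.2, 96.4 and 137 CPM in Lgr5low and at 37.8, 33.5 and 51.5 CPM in Lgr5neg. Lgr5high lay below Lgr5med without overlap for all 3.

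Creld2 was at 8.08, 8.69 and 9.26 CPM in Lgr5high, at 11.8, 13.9 and 11.4 CPM in Lgr5med, at 22.6, 18.5 and 24.8 CPM in Lgr5low and at 11.8, 10.1 and 14.4 CPM in Lgr5neg. Dnajb11 was at 40.4, 44.6 and 59.0 CPM in Lgr5high, at 49.1, 66.5 and 76.2 CPM in Lgr5med, at 90.2, 91.9 and 119.7 CPM in Lgr5low and at 100.5, 109 and 129 CPM in Lgr5neg. Both were higher in every Lgr5low than in every Lgr5med library, and in Lgr5neg Creld2 was again lower while Dnajb11 was not. Edem1 was at 24.8, 32.6 and 30.1 CPM in Lgr5high, at 42.5, 50.3 and 57.9 CPM in Lgr5med, at 65.2, 72.2 and 88.0 CPM in Lgr5low and at 112, 119 and 154 CPM in Lgr5neg. Xbp1 was at 36.3, 45.9 and 46.8 CPM in Lgr5high, at 54.1, 81.2 and 108 CPM in Lgr5med, at 91.7, 118 and 156 CPM in Lgr5low and at 92.1, 111 and 133 CPM in Lgr5neg. Edem1 libraries of the 4 populations did not overlap, whereas Xbp1 overlapped between Lgr5low and Lgr5neg. Syvn1 was at 28.1, 30.9 and 32.5 CPM in Lgr5high, at 30.1, 33.9 and 48.6 CPM in Lgr5med, at 39.4, 41.4 and 67.5 CPM in Lgr5low and at 60.6, 60.2 and 102 CPM in Lgr5neg. Calr, the soluble lectin chaperone, was at 96.4, 97.5 and 149 CPM in Lgr5high, at 162, 162 and 206 CPM in Lgr5med, at 244, 202 and 294 CPM in Lgr5low and at 233, 213 and 311 CPM in Lgr5neg (log2 difference -1.20, SE 0.20, adjusted p = 4.38e-05 for Lgr5high against Lgr5neg).

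Ddit3 was at 3.79, 4.69 and 2.22 CPM in Lgr5high, at 3.40, 4.25 and 1.94 CPM in Lgr5med, at 4.54, 3.41 and 4.65 CPM in Lgr5low and at 15.4, 8.35 and 10.5 CPM in Lgr5neg. Dnajb9 was at 7.06, 7.73 and 7.26 CPM in Lgr5high, at 8.08, 8.84 and 10.9 CPM in Lgr5med, at 9.15, 13.2 and 15.1 CPM in Lgr5low and at 22.5, 18.1 and 16.6 CPM in Lgr5neg. Atf4 was at 56.4, 53.4 and 58.0 CPM in Lgr5high, at 62.3, 61.1 and 76.1 CPM in Lgr5med, at 84.1, 66.9 and 86.9 CPM in Lgr5low and at 117, 93.1 and 109 CPM in Lgr5neg. All 3 had every Lgr5neg library above every other library. Canx was at 225, 257 and 307 CPM in Lgr5high, at 298, 319.8 and 354 CPM in Lgr5med, at 389.9, 364 and 418 CPM in Lgr5low and at 419, 590.1 and 670.1 CPM in Lgr5neg, with Lgr5neg above Lgr5low (log2 difference -0.54, SE 0.17, adjusted p = 0.0114). Sec11c was at 34.5, 37.4 and 32.1 CPM in Lgr5high, at 39.9, 41.6 and 39.0 CPM in Lgr5med, at 45.3, 46.0 and 40.6 CPM in Lgr5low and at 23.1, 17.6 and 19.6 CPM in Lgr5neg. Ssr1 was at 129, 133 and 148 CPM in Lgr5high, at 154, 157 and 211 CPM in Lgr5med, at 169.7, 192 and 208 CPM in Lgr5low and at 66.1, 104 and 109 CPM in Lgr5neg. For both genes Lgr5neg was below the other 3 populations without overlap.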

How the data were processed

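RNA from 15 ng per sample was amplified with Nugen Ovation kits and sequenced as single 76-nt reads, per the labels. The deposited values are whole-number counts per gene symbol; STAR, featureCounts and the GRCm38 build are named in the submitters' processing notes, and versions, annotation and strand setting are not given in the sources used here. Totals ran between 11176264 and 23343499 counts per library, the median being 19660147.5.

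Counts were scaled by TMM and tested with edgeR 4.0.16 (quasi-likelihood F test, limma 3.58.1, R 4.3.3), with Benjamini-Hochberg adjustment over all genes passing filterByExpr (count minimum 10, total 15), and calls at an adjusted p under 0.05. The NRG1 comparisons used the 6 libraries of a population, population comparisons the 12 of a treatment, and response differences all 24. DESeq2 1.42.0 was an alternative, as were RLE and upper-quartile scaling, no low-count filter, removal of mitochondrial rRNA, a joint model, 15-week-old mice alone, left-out libraries and blocks. The fits were tested on simulated counts with a fixed spread and no effect of mouse or replicate. That test therefore does not bear on spread shared by the libraries of a mouse. Ddit3, annotated as 2 overlapping entries, was merged for exon length.

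The 38 members and all lists were chosen with earlier results of these data known. Any member could be named. Per-library values were given for up to 8 called rises and 8 falls by size at an average log2 CPM of 2 or more, and for Xbp1, Atf4, Ddit3, Hspa5 and Ern2 with NRG1. Up to 3 called companions per direction were named from each list. Populations share mice, so the mouse block applies there. Between treatments no label pairs the mice. Results with the replicate number as a block were given beside the main test where each of the 3 pairs of deviations correlated above 0.1. That held in Lgr5low and Lgr5neg only. The limit was chosen here, and the same mice gave every population, so it does not establish a pairing. No sample was left out of the main comparisons.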

Additional observations from a re-analysis of the deposited data

How the results depend on the processing

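Over 560 gene results and 11157 alternatives, no called difference changed sign, 243 calls ended and 192 appeared; 526 values that were never called changed sign. Counts of called members changed as follows. Of these settings, the share of all genes called is given for the blocks only. A change in count under the others is therefore not read as particular to the members. In 1 model of all 24 libraries there were 0 with NRG1 in Lgr5high, 1 for Lgr5med against Lgr5low of PBS mice, and in NRG1 mice 5 for Lgr5high against Lgr5med and 3 for Lgr5med against Lgr5low (4 under upper-quartile scaling). Without a low-count filter there were, with NRG1, 5 in Lgr5high, 2 in Lgr5low and 2 in Lgr5neg, 4 for Lgr5med against Lgr5low of PBS mice, 15 and 14 for the same 2 steps of NRG1 mice, and 1 each for the response of Lgr5high and of Lgr5low against that of Lgr5neg. DESeq2 gave 1 with NRG1 in Lgr5low and 1 for Lgr5med against Lgr5low of PBS mice. In 15-week-old mice 3 were called in Lgr5med with NRG1; the 11-week-old mice give 1 library per arm and no test.

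With the replicate block there were, with NRG1, 4 in Lgr5high, 8 in Lgr5med, 1 in Lgr5low and 5 in Lgr5neg. Same-numbered libraries correlated at 0.0695 to 0.227 in Lgr5high and 0.07 to 0.207 in Lgr5med. No label pairs NRG1 with PBS mice, so the number is no established pairing in any population. The block added Dnajb11 and Creld2 in Lgr5high and Creb3l1, Hyou1 and Pdia6 in Lgr5med, where it called 5.2% and 9.97% of all genes lower. The mouse block gave 28 and 7 for Lgr5high against Lgr5med and Lgr5med against Lgr5low of PBS mice, and 17 and 22 for those of NRG1 mice.

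With single libraries left out, counts with NRG1 ran between 0 and 3 in Lgr5high, 0 and 9 in Lgr5med, and stayed at 0 in Lgr5low, in Lgr5neg and for the response differences. In PBS mice they ran between 8 and 23 for Lgr5high against Lgr5med, 0 and 3 for Lgr5med against Lgr5low, 15 and 19 for Lgr5low against Lgr5neg and 25 and 30 for Lgr5high against Lgr5neg. In NRG1 mice they ran between 2 and 9, 0 and 9, 16 and 20, and 26 and 29 for the same steps. The cause of these changes was not tested. Trib3 and Chac1 lie near the detection limit and carry little weight.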

Other observations

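Regulators of ER stress outside the module were called in both directions between Lgr5high and Lgr5neg. Among 20 other stress sensors and regulators, Creb3l3, a membrane-bound factor of liver and gut known for lipid metabolism, was lower in Lgr5high than in Lgr5neg of PBS mice by a log2 difference of -4.73, and Creb3l2 by -2.88. Creb3l4 had the order of Creb3l1, lower in Lgr5high than in Lgr5med (-1.98) and higher in Lgr5low than in Lgr5neg (2.38). Wfs1, the wolframin of the ER membrane, was lower in Lgr5high than in Lgr5neg (-2.39), and Eif2ak4, the GCN2 kinase that senses uncharged tRNA, was higher (1.71). In all, 9 of 20 were lower and 4 higher in Lgr5high against Lgr5neg, where 32% of all genes were lower and 35.4% higher. Calls in either direction were thus common among all genes there.

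With NRG1, Creb3l3 was lower in Lgr5high (log2 difference -1.15, adjusted p = 0.00605) and in Lgr5med (-0.95, adjusted p = 0.00987), and Wfs1 likewise (-0.84, adjusted p = 0.0333, and -0.88, adjusted p = 0.0395). Both are genes of the Lgr5neg end of the gradient, and enterocyte markers were also lower with NRG1 in Lgr5med. Whether one moved with the other was not tested.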
